A study of Mus musculus and Homo sapiens with 34 samples.

Results

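The epithelial sodium channel, ENaC, is built from an alpha, a beta and a gamma subunit, encoded by Scnn1a, Scnn1b and Scnn1g (SCNN1A, SCNN1B and SCNN1G in human). These 3 genes were found by their symbols in each of 7 raw count tables, which listed between 16553 and 26245 genes. All 3 were listed in every table. They were chosen by their log2 changes against the matching vehicle or control in these same libraries, so those changes, and whether they passed the threshold, are given as a description, with standard errors and no p-values. In airway and alveolar epithelium the channel sits in the apical membrane and takes up sodium from the fluid lining the lung, and water follows. The alpha subunit can form a weakly conducting channel without the others, while full current needs all 3 subunits. Proteases such as furin and prostasin (Prss8) cut the alpha and gamma subunits and open the channel. The ubiquitin ligase Nedd4l removes it from the membrane, the kinase Sgk1 restrains Nedd4l, and aldosterone and glucocorticoids raise the channel in many epithelia.

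The study measured polyadenylated RNA in 34 libraries in 17 groups of 2, of which 22 came from cultures of mouse lung adenocarcinoma and 12 from established human lines of the same tumour. The series title concerns opposing lineage specifiers in this tumour, and the comparisons ask what the inhibitors MRTX1133 and trametinib, and loss or gain of the liver and gut transcription factor HNF4A, did to RNA levels. The 3154 organoids carried p53frt, Rosa-FSF-CreERT2 and Hnf4aflox. In them 4-hydroxytamoxifen (4OHT) activates the recombinase and deletes Hnf4a, and ethanol (EtOH) is its vehicle. One 3154 experiment compared ethanol with 4OHT, labelled 2 mM, after 2 weeks. A separate one ran for 48 hours with ethanol or 4OHT, each with vehicle or 3 nM MRTX1133, a small-molecule inhibitor. The 1027B organoids and the 3311 cells carried p53frt, Rosa-FSF-CreERT2, Foxa1flox and Foxa2flox, and no deleting agent was named for either. The 1027B groups were vehicle, trametinib (a MEK inhibitor) at 10 nM and MRTX1133 at 20 nM, and the 3311 groups were vehicle and trametinib at 50 nM. For the human lines H358 and H1651 the trametinib dose was 20 nM beside a vehicle group, and all of these treatments lasted 48 hours. H1651 with a lentiviral HNF4A construct was also grown for 7 days with or without doxycycline at 1 µg/mL. Each mouse culture and each human line is 1 line, and nothing in the labels says that the 2 replicates came from separate cultures, so the spread between them may be technical. Organoids were grown in L-WRN conditioned medium.

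Library totals ran from 19692517 to 45284286 counts. The summed level of 7 epithelial markers lay between 6165 and 11617 CPM (TMM-scaled CPM, the count relative to library size) in mouse libraries and between 4177 and 7058 CPM in human ones. The summed fibroblast, leukocyte and endothelial markers did not exceed 26.2, 38.7 and 13.7 CPM in any mouse library, while the fibroblast list reached 757 CPM in H1651. Hnf4a stood at 315 and 427 CPM with ethanol and at 53.5 and 68.0 CPM with 4OHT in the 2-week experiment. In the 48-hour experiment it went from 221 and 230 CPM to 49.4 and 50.4 CPM in vehicle, so Hnf4a RNA was lower with 4OHT but did not disappear. HNF4A stood at 47.1 and 35.9 CPM without and 94.4 and 96.8 CPM with doxycycline in H1651, and had 0 counts in all 4 H358 libraries.

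In GENCODE M21 on GRCm38, Scnn1a lies on chr6:125320659-125344943. Scnn1g, at chr7:121734479-121768475, and Scnn1b, at chr7:121865038-121918514, stand side by side on the same strand, separated by 96.562 kb that holds 1 annotated gene, the non-coding Gm44740. Each of the 3 genes has 13 merged exons, and none of their exon bases is shared with another gene. Because Scnn1b and Scnn1g are neighbours and their RNA moved in the same direction in several comparisons below, the 300 bases around each start (250 before and 50 after, plus strand, GRCm38.p6, RefSeq) are shown. The stretches are chr7:121734229-121734528 for Scnn1g and chr7:121864788-121865087 for Scnn1b. Capitals mark each GC box, GGGCGG or its reverse complement CCGCCC.
Scnn1g: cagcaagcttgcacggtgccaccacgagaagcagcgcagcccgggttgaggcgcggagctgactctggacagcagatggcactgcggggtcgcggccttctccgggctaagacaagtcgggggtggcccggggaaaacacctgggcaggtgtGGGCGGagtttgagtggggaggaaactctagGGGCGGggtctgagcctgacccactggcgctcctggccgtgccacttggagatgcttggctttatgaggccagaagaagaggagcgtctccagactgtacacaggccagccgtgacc
Scnn1b: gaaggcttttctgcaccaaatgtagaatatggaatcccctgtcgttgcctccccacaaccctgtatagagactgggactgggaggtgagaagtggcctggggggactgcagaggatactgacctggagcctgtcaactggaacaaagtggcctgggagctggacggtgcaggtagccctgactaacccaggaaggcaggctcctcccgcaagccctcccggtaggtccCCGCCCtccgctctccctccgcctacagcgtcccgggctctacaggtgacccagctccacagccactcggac
The Scnn1g stretch held GC boxes starting 98 and 67 bases before the start, and the Scnn1b stretch held 1 starting 22 bases before it. A GC box was found in 35.7% of 32851 promoters of this length. GC content was 64.7% for Scnn1g and 61.7% for Scnn1b, with a median of 52.7% over all promoters, and there were 18 and 10 CpG sites against a median of 7. Neither stretch held, on either strand, an HNF4 motif (CAAAGTCCA), an AP-1 motif (TGANTCA), an ETS motif (CCGGAAG), a glucocorticoid receptor motif or a TATA box (TATAAA). These were present in 0.475%, 7.81%, 8.86%, 0.475% and 13.6% of promoters. No overlaps between different motifs arose, since only the GC box matched.

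In 1027B organoids all 3 subunits were higher with either inhibitor, and the beta subunit, nearly absent from vehicle, showed the widest span. Scnn1b stood at 0.387 and 0.217 CPM in vehicle (8 and 4 counts), at 13.6 and 10.0 CPM with MRTX1133, and at 49.8 and 35.4 CPM with trametinib. The 3 groups did not overlap, and the order was vehicle, MRTX1133, trametinib. Its log2 change with trametinib was 7.09 ± 0.36 (SE), a 141-fold ratio of means with a 95% counting interval from 79.5 to 270.02, and with MRTX1133 it was 5.24 ± 0.37. Ranked by size, the trametinib change was number 29 of the 14555 genes tested. The rank is a description, since the subunits were picked by such changes. Scnn1b had passed the count filter only through its inhibitor libraries, and was not tested when 10 counts were required in every library.

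The gamma subunit followed the same order. Scnn1g stood at 0.775 and 1.35 CPM in vehicle, 16.8 and 15.8 CPM with MRTX1133 and 49.2 and 46.8 CPM with trametinib. The log2 changes were 3.94 ± 0.23 with MRTX1133 and 5.50 ± 0.24 with trametinib, the latter a 45.1-fold ratio. Scnn1a, the subunit already present in vehicle, stood at 13.2 and 14.6 CPM there, 74.0 and 69.0 CPM with MRTX1133 and 159 and 146 CPM with trametinib. Its log2 changes were 2.36 ± 0.11 and 3.45 ± 0.12, or 5.14-fold and 10.96-fold. All 3 subunits were called higher in both comparisons (adjusted p under 0.05, edgeR quasi-likelihood test), where 13.5% of genes were called higher with trametinib and 3.01% with MRTX1133. Libraries of all 3 did not overlap between groups, as for 67.1% of all genes with trametinib and 52.5% with MRTX1133. Genes called lower made up 13.2% and 3.26%. Since the genes were picked for these changes, nothing is read from those counts. In these bulk samples a change in the number of cells of a type and a change in RNA per cell cannot be told apart.

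**Figure D1:**
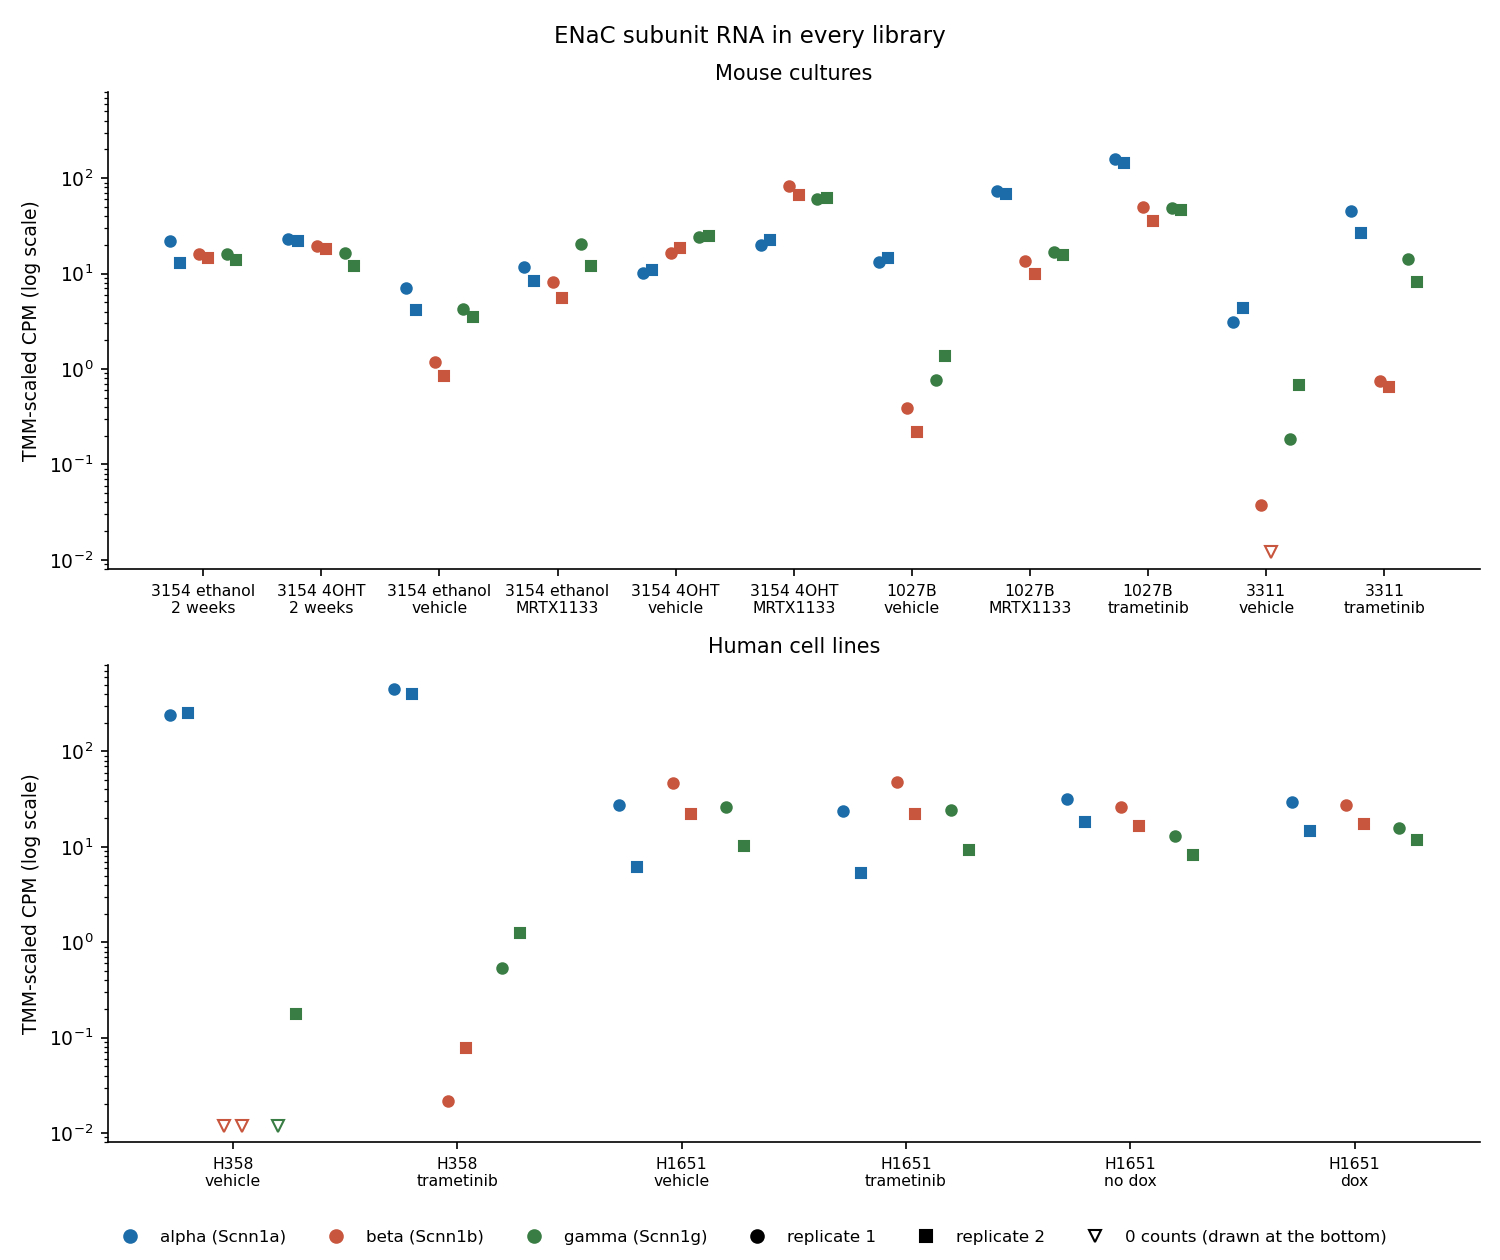
TMM-scaled CPM on a log axis for the 3 ENaC subunits in each library, with mouse cultures above and human lines below; circles and squares are replicates 1 and 2, and open triangles at the bottom are libraries with 0 counts. Scnn1b in 1027B runs from 0.217 CPM in a vehicle library to 49.8 CPM in a trametinib library, while the H1651 groups overlap.

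The direct comparison of MRTX1133 with trametinib in 1027B was tested, although the subunits had been chosen with both changes against vehicle known and both rest on the same vehicle libraries. Levels with 20 nM MRTX1133 were below those with 10 nM trametinib for all 3 subunits, and no library overlapped, as for 48.1% of genes. The log2 differences were -1.09 ± 0.11 for Scnn1a (95% interval -1.34 to -0.84), -1.85 ± 0.24 for Scnn1b (-2.42 to -1.28) and -1.56 ± 0.18 for Scnn1g (-1.99 to -1.13). None passed in edgeR, with adjusted p of 0.0648, 0.0759 and 0.0679, and no gene in the table did (0% called; 2357 had an unadjusted p under 0.05). With the replicate number as a block, since same-numbered libraries of this table deviated together, edgeR gave adjusted p of 0.000740, 0.000551 and 0.00108, with 14.1% of genes called. DESeq2 without the block gave 3.98e-12, 1.42e-08 and 2.04e-13, with 712 genes called. The doses of the 2 agents were not matched, so the difference is between these treatments as given.

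Reckoned per kilobase of exon, which allows the subunits to be set beside each other, the make-up of the trio differed between groups. In 1027B vehicle Scnn1a stood at 3.36 ± 0.249 CPM per kb (SD, n = 2), Scnn1g at 0.356 ± 0.137 and Scnn1b at 0.115 ± 0.0459, so the alpha subunit held 87.8% of the summed level, gamma 9.16% and beta 3.06%. With MRTX1133 the shares were 63.6%, 20.0% and 16.4%, and with trametinib 53.4%, 23.3% and 23.2%. Trametinib put Scnn1b at 16.2 ± 3.87 and Scnn1g at 16.1 ± 0.560 CPM per kb, which did not differ beyond their spread, with Scnn1a above both at 36.9 ± 2.22.

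Genes that process or regulate the channel moved in both directions in 1027B. Of 54 tested genes on 5 lists (trafficking, proteases, corticosteroid signalling, transport partners, related channels), 18 passed with trametinib, 7 higher and 11 lower, or 33.3% against 26.7% of all genes. The median log2 change of the lists was -0.01, equal to that of all genes. With the replicate block 31 passed, against 44.9% of all genes. Among trafficking genes 3 rose and 1 fell: Wnk4, a kinase that regulates ion transport, rose from 24.2 ± 0.0731 to 69.7 ± 4.05 CPM (SD, n = 2; log2 1.52 ± 0.11, edgeR adjusted p = 0.000642), and Nedd4l rose from 146 ± 16.3 to 242 ± 1.44 CPM (log2 0.73, edgeR adjusted p = 0.00692). Stk39, the kinase SPAK that acts below the WNK kinases, fell from 331 ± 74.9 to 114 ± 38.9 CPM (log2 -1.54, edgeR adjusted p = 0.0114), a call lost without vehicle replicate 2 or trametinib replicate 1. Sgk1 stood at 25.1 ± 12.01 CPM in vehicle and 46.9 ± 5.32 CPM with trametinib and did not pass (edgeR adjusted p = 0.102).

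Of 13 proteases and inhibitors, 2 rose and 6 fell with trametinib in 1027B, where 13.5% of all genes were called higher and 13.2% lower. Prss8 rose from 63.9 ± 7.01 to 123 ± 3.99 CPM (log2 0.95, edgeR adjusted p = 0.00308), while Furin fell from 172 ± 23.2 to 85.2 ± 5.32 CPM (log2 -1.02, edgeR adjusted p = 0.00309). Both cut the channel. The share called on this list was 61.5%, and its median log2 change was -0.38 beside -0.01 for all genes. The serine protease Prss22 fell from 138 ± 8.83 to 23.98 ± 6.01 CPM, and Tmprss11e from 1.72 ± 1.06 to 0.182 ± 0.00600 CPM, the latter call lost in 3 of 4 fits that left out a library. None of 10 tested corticosteroid genes passed in edgeR. Among 14 transport partners 2 rose and 4 fell, the largest called changes being Kcnn4, a calcium-gated potassium channel, from 3.22 to 0.738 CPM, and Slc26a9, a chloride transporter, from 209 to 48.9 CPM. The Kcnn4 call was lost without vehicle replicate 1, vehicle replicate 2 or trametinib replicate 1.

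MRTX1133 in 1027B moved fewer of these genes past the threshold in edgeR, 8 of 54 (3 higher, 5 lower; 14.8% against 6.27% of all genes), and 27 with the replicate block (24.1% of all genes). Between 0 and 4 passed when a library was left out. Wnk4 rose to 44.8 ± 0.299 CPM (log2 0.89, edgeR adjusted p = 0.0101), and Furin fell to 101 ± 8.61 CPM (log2 -0.76, edgeR adjusted p = 0.0226); both calls were lost without vehicle replicate 1 and without either MRTX1133 library. The proteases Tmprss11e and Pcsk6 fell, from 1.72 to 0.223 CPM and from 331 to 178 CPM, and the channels Kcnj15 (potassium) and Ano1 (chloride) rose, from 0.456 to 2.28 CPM and from 129 to 244 CPM. The Ano1 call was lost without vehicle replicate 1 or MRTX1133 replicate 2, and the other 3 calls when any of the 4 libraries was left out. Nedd4l at 207 ± 20.0, Prss8 at 84.2 ± 7.82 and Sgk1 at 37.8 ± 12.7 CPM did not pass (edgeR adjusted p = 0.0568, 0.106 and 0.371).

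Lung cell markers moved in the same libraries. Summed club cell markers (4 of 4 listed) in 1027B ran from 1.84 to 8.02 CPM in vehicle, from 70.4 to 82.3 CPM with MRTX1133 and from 154 to 285 CPM with trametinib. Alveolar type 1 markers (6 of 6) ran from 1204 to 1309, from 1192 to 1600 and from 1678 to 2378 CPM. Alveolar type 2 markers (7 of 7) ran the other way, from 6772 to 10847, from 3250 to 4941 and from 2558 to 3067 CPM. Ciliated (2 of 4) and endothelial (2 of 5) markers ran from 0.629 to 0.867 and from 2.86 to 3.95 CPM in vehicle. With trametinib they ran from 2.80 to 3.59 and from 8.10 to 10.03 CPM. Leukocyte (3 of 7) and fibroblast (2 of 7) markers were higher too, at most 2.28 and 0.921 CPM in vehicle and at least 2.66 and 1.03 CPM. Epithelial markers were lower, from 9417 to 9614 in vehicle and 7739 to 8585 CPM with trametinib. The part of these shifts in the subunit levels was not tested.

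Trametinib in 3311 cells, a line with low ENaC RNA, went with higher levels of the same genes. Scnn1a stood at 3.08 and 4.34 CPM in vehicle and 44.9 and 26.7 CPM with trametinib, a log2 change of 3.27 ± 0.32. Scnn1g stood at 0.186 and 0.677 CPM in vehicle and 14.2 and 8.18 CPM with trametinib, a log2 change of 4.70 ± 0.56. The trametinib libraries differed from each other, replicate 1 being the higher for both, but they lay above both vehicle libraries. Scnn1b had 1 and 0 counts in vehicle and 21 and 17 counts with trametinib. The ratio of CPM means was 37.7, with a 95% counting interval on the counts from 6.16 to 1478, so its size is not well fixed. At 0.753 and 0.647 CPM with trametinib it remained scarce, at 2.20% of the per-kilobase sum of the trio, with alpha at 68.4% and gamma at 29.4%. In vehicle the shares were 86.5% for alpha, 12.6% for gamma and 0.858% for beta. All 3 were called higher, as were 19.4% of all genes, and the groups did not overlap for any of them, as for 74.5% of genes. Scnn1b had passed the count filter only through its trametinib libraries, and neither it nor Scnn1g was tested when 10 counts were required in every library. Since the genes were picked for these changes, the calls support nothing.

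**Figure D2:**
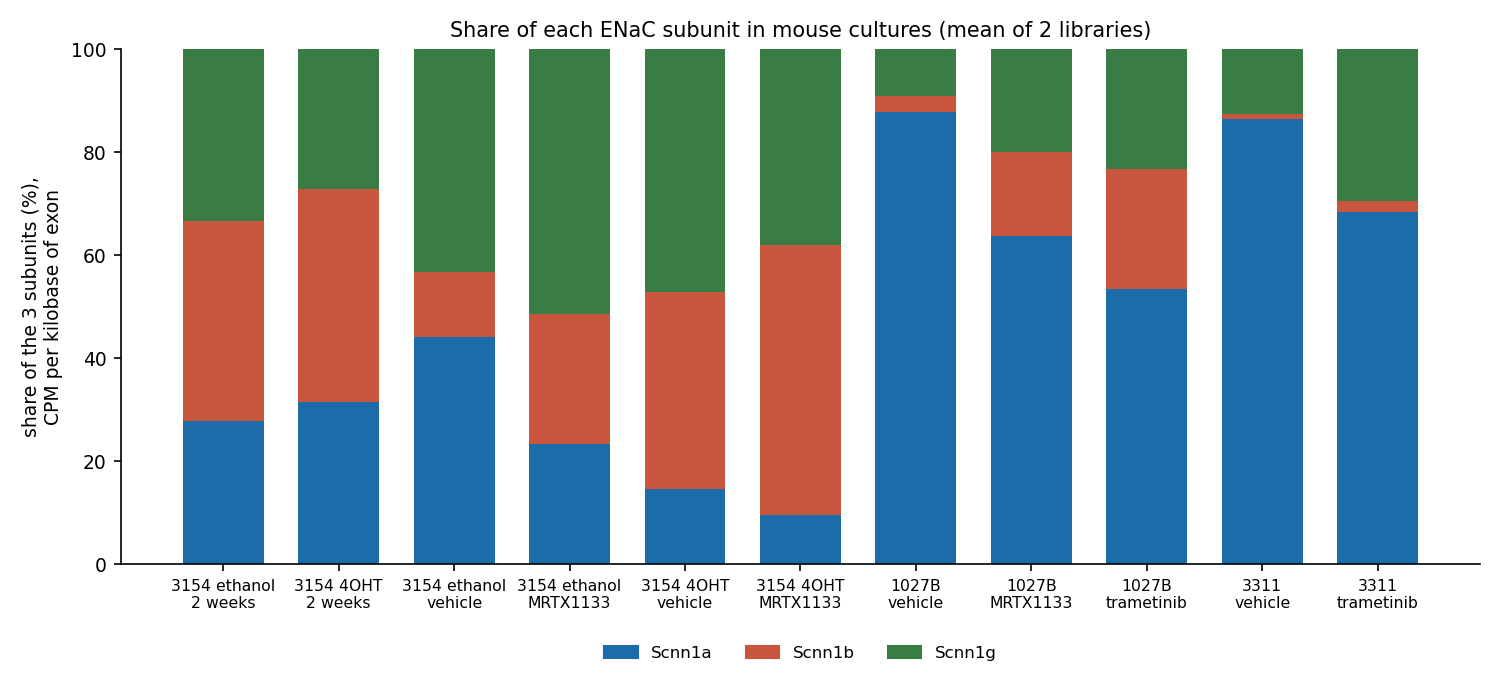
Share of each subunit in the sum of the 3, in percent, from CPM per kilobase of exon, as the mean of 2 libraries per mouse group. Scnn1a holds 87.8% in 1027B vehicle and 9.55% in 3154 organoids given 4OHT and MRTX1133, where Scnn1b holds 52.4%.

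On the pathway lists 28 of 53 tested genes passed with trametinib in 3311 (15 higher, 13 lower; 52.8% against 39% of all genes), with a median log2 change of 0.02 beside 0.01 for all genes. Nedd4l rose from 96.7 ± 6.49 to 229 ± 19.5 CPM (log2 1.25 ± 0.14, edgeR adjusted p = 0.00124), and Stk39 fell from 198 ± 15.9 to 35.2 ± 6.54 CPM (log2 -2.49, edgeR adjusted p = 0.000380). Sgk1 rose from 17.2 ± 0.486 to 30.4 ± 5.69 CPM (log2 0.82, edgeR adjusted p = 0.0148), a call lost without trametinib replicate 2, and its relative Sgk2 rose from 3.06 to 7.61 CPM (edgeR adjusted p = 0.0331), lost without vehicle replicate 1 or trametinib replicate 2. Furin rose here, from 140 ± 7.79 to 216 ± 17.9 CPM (edgeR adjusted p = 0.0128, lost without trametinib replicate 1). Prss8 was near 1.74 CPM in vehicle and 1.36 CPM with trametinib and did not pass. Of 11 corticosteroid genes 4 fell and none rose. Among them were Per1, a clock gene that glucocorticoids induce, from 114 ± 49.4 to 32.4 ± 2.61 CPM, and Fkbp5, a glucocorticoid-induced chaperone partner, from 203 ± 18.6 to 119 ± 27.6 CPM. The Fkbp5 call was lost without vehicle replicate 2 or trametinib replicate 1. The proteases Pcsk6 and Plau fell from 72.9 to 13.5 and from 5.89 to 1.09 CPM. Among transport partners the water channel Aqp3 rose from 2.65 to 13.7 CPM and the pump regulator Fxyd5 fell from 7.15 to 0.409 CPM. Asic1, an acid-sensing channel of the same family as ENaC, rose from 3.74 ± 0.292 to 10.1 ± 3.31 CPM (edgeR adjusted p = 0.0118, lost without trametinib replicate 1). Alveolar type 1 markers in 3311 summed to 67.2 to 71.6 CPM in vehicle and 140 to 303 CPM with trametinib. Alveolar type 2 markers (5 of 7 listed) went from 4466 to 5204 CPM in vehicle to 598 to 695 CPM with trametinib. Leukocyte markers (3 of 7) went from 5.17 to 12.1 CPM in vehicle to between 20.97 and 27.96 CPM, and the ciliated (3 of 4) and club (1 of 4) lists from at most 1.19 and 0.398 CPM to at least 2.47 and 2.02 CPM. The part of these lists in the subunit levels was not tested.

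In the 48-hour 3154 experiment the 3 subunits were higher both with 4OHT and with MRTX1133, and stood at their highest with both. Scnn1b showed the widest span. It stood at 1.18 and 0.839 CPM with ethanol and vehicle, 8.15 and 5.55 CPM with ethanol and MRTX1133, 16.6 and 18.7 CPM with 4OHT and vehicle, and 82.3 and 67.0 CPM with 4OHT and MRTX1133. None of the 4 groups overlapped its neighbour in that order. The log2 change with 4OHT was 4.12 ± 0.27 in vehicle and 3.44 ± 0.23 under MRTX1133, and that with MRTX1133 was 2.76 ± 0.27 in ethanol and 2.08 ± 0.21 after 4OHT.

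Scnn1g stood at 4.21 and 3.48, 20.2 and 12.1, 24.4 and 24.8, and 60.2 and 62.4 CPM in the same order of groups. The MRTX1133 libraries with ethanol were apart from each other, and the higher of them was below both 4OHT libraries. The log2 changes of Scnn1g with 4OHT were 2.68 ± 0.25 in vehicle and 1.92 ± 0.23 under MRTX1133, and those with MRTX1133 were 2.07 ± 0.25 in ethanol and 1.32 ± 0.22 after 4OHT. Scnn1a moved least, at 7.07 and 4.11, 11.6 and 8.28, 10.2 and 10.9, and 20.1 and 22.3 CPM, and its middle 2 groups overlapped. Its 4 log2 changes were 0.91 ± 0.27 and 1.09 ± 0.26 with 4OHT and 0.83 ± 0.27 and 1.01 ± 0.26 with MRTX1133.

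All 3 subunits were called higher with 4OHT in vehicle (15.3% of all genes) and under MRTX1133 (13.2%), and Scnn1b and Scnn1g but not Scnn1a were called higher with MRTX1133 in ethanol (0.317%, with 0.0323% called lower) and after 4OHT (2.1%, with 2.54% lower). The libraries of all 3 did not overlap in these 4 comparisons, as for 66.8%, 67.7%, 33% and 66.6% of genes. These changes too were among those the genes were picked for, so neither the calls nor how far they held under other settings is read as support. Scnn1a was no longer called with 4OHT when either 4OHT library of the comparison or ethanol replicate 2 was left out. Its call in vehicle was also lost when only those groups were fitted. The calls with MRTX1133 in ethanol were lost without MRTX1133 replicate 1 and when only those groups were fitted, where no gene passed in edgeR (743 at an unadjusted p under 0.05). After 4OHT, leaving out 4OHT and MRTX1133 replicate 2 kept only Scnn1b, and leaving out any other library of that comparison kept none. Over all genes, leaving out 1 library of the comparison moved the calls with MRTX1133 from 54 to between 0 and 309 in ethanol and from 717 to between 0 and 23 after 4OHT. Scnn1a was called there too with upper-quartile factors, in DESeq2 and when only those groups were fitted.

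The interaction asks whether the change with MRTX1133 differed after 4OHT. It was tested although both changes had been seen, and it was 0.18 ± 0.37 on the log2 scale for Scnn1a (95% interval -0.68 to 1.03), -0.68 ± 0.35 for Scnn1b (-1.48 to 0.12) and -0.75 ± 0.33 for Scnn1g (-1.51 to 0.00). None passed in edgeR, with adjusted p of 0.974, 0.757 and 0.676. No gene passed (0% called, 1150 with an unadjusted p under 0.05; DESeq2 called 36, none of them a subunit). These intervals allow a change with MRTX1133 after 4OHT that was smaller by up to 1.48 for Scnn1b and 1.51 for Scnn1g, or about the same. The Scnn1a estimate turned negative, to -0.26, without ethanol vehicle replicate 1, and to -0.04 without ethanol MRTX1133 replicate 2.

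**Figure D3:**
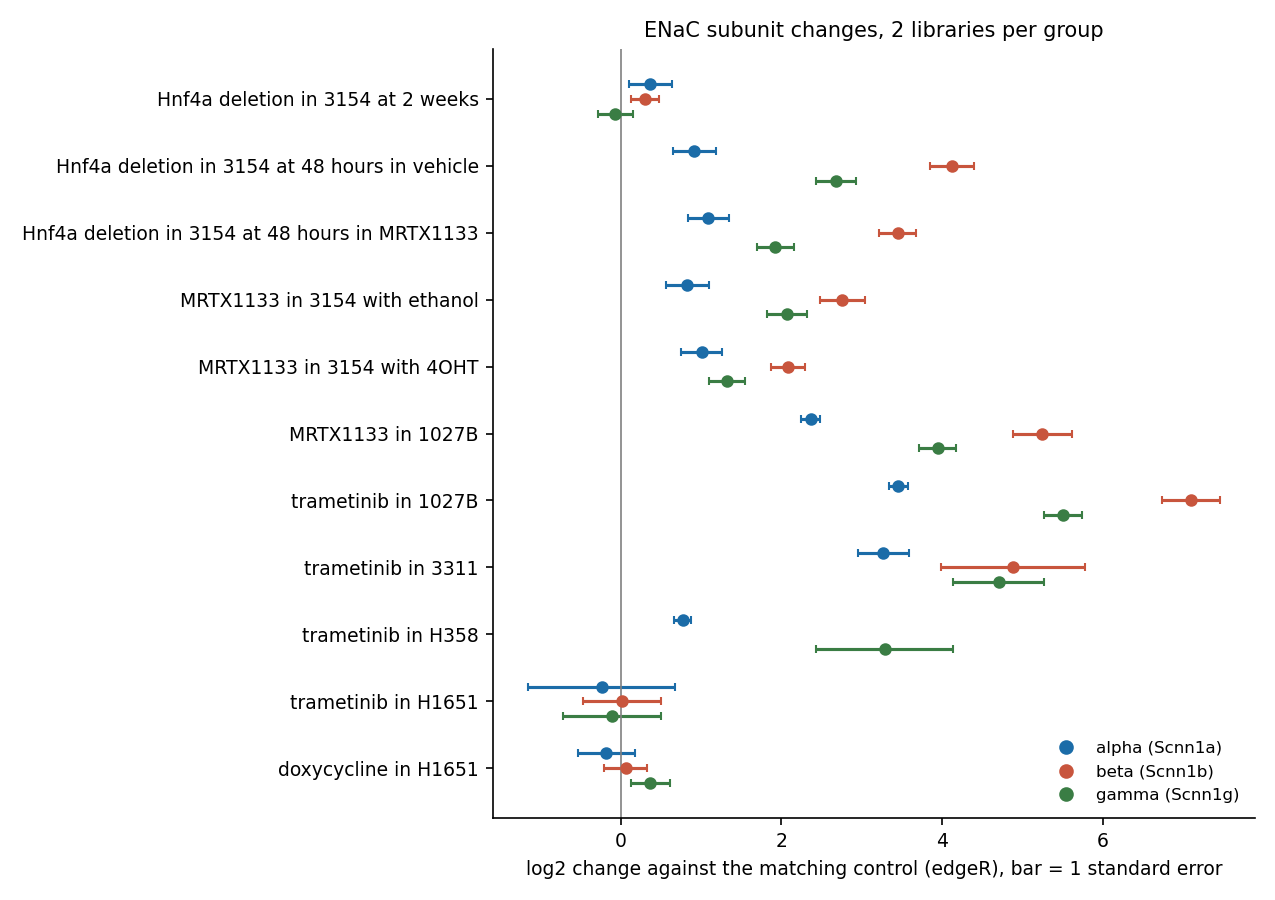
Log2 change of each subunit against its matching control from edgeR, with 2 libraries per group and bars of 1 standard error, for 11 comparisons. Points for 1027B, 3311 and the 48-hour 3154 experiment lie to the right of 0, and those for H1651 straddle 0; Scnn1b in 3311 is a fitted value from 1 vehicle count, and SCNN1B in H358 is not drawn.

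Per kilobase of exon the alpha share was lower and the beta share higher with each agent in these organoids. With ethanol and vehicle Scnn1a held 44.1% of the sum, Scnn1g 43.2% and Scnn1b 12.7%, and alpha and gamma did not differ beyond their spread. With ethanol and MRTX1133 the shares of alpha, beta and gamma were 23.4%, 25.1% and 51.5%, with 4OHT and vehicle 14.6%, 38.3% and 47.1%, and with both 9.55%, 52.4% and 38.1%. The 3154 trio thus had a smaller alpha share than 1027B in each of these groups (44.1% at most, against 53.4% at least), a comparison across tables that were scaled separately and one that was not tested.

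More pathway genes passed with 4OHT than with MRTX1133, as did more of all genes. With 4OHT in vehicle 26 of 54 tested genes passed (15 higher, 11 lower; 48.1% against 31% of all genes; median log2 0.21 beside 0.01), under MRTX1133 19 (12 higher, 7 lower; 35.2% against 27.7%; median 0.04 beside -0.01). In vehicle 11 and 12 passed without 4OHT replicate 1 and 2. Under MRTX1133 11 passed without either 4OHT library and 12 without ethanol replicate 1. With MRTX1133 in ethanol none passed in edgeR, where 0.349% of all genes did (9 at an unadjusted p under 0.05, 4 by DESeq2). After 4OHT 3 fell and none rose (5.56% against 4.64% of all genes). For the interaction none passed in edgeR (12 at an unadjusted p under 0.05, 0 by DESeq2). Whether the counts of calls differ between agents was not tested.

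Sgk1, the kinase that restrains Nedd4l, was the trafficking gene with the largest rise with 4OHT, from 2.81 ± 0.767 to 22.5 ± 3.95 CPM in vehicle (log2 2.99 ± 0.24, edgeR adjusted p = 0.000271) and from 3.13 ± 0.580 to 26.8 ± 0.379 CPM under MRTX1133 (log2 3.10 ± 0.24, edgeR adjusted p = 0.000223). Both calls held in all 11 alternatives run. MRTX1133 left Sgk1 between 2.81 and 3.13 CPM in ethanol and between 22.5 and 26.8 CPM after 4OHT, and neither difference passed. Nedd4l stood at 155 ± 60.5 CPM with ethanol and 128 ± 7.38 CPM with 4OHT in vehicle and did not pass (edgeR adjusted p = 0.508). Cav1, the caveolar coat protein and also a type 1 cell marker, rose from 42.1 ± 13.4 to 103 ± 4.73 CPM in vehicle, a call lost without 4OHT replicate 2. Stk39 fell from 411 ± 25.9 to 205 ± 22.5 CPM under MRTX1133 (edgeR adjusted p = 0.00193).

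Of 14 proteases and inhibitors 5 rose and 5 fell with 4OHT in vehicle, against 15.3% and 15.7% of all genes. Furin rose from 74.2 ± 2.72 to 162 ± 5.47 CPM (log2 1.12 ± 0.12, edgeR adjusted p = 0.000629) and Prss8 stood at 106 ± 10.1 and 96.8 ± 0.193 CPM and did not pass. The largest called changes were in scarce genes, Tmprss11e from 0.231 to 1.82 CPM and the cathepsin Ctss from 15 and 9 counts to 0 and 1 count. Under MRTX1133 4 rose and 1 fell (13.2% and 14.5% of all genes), with Furin from 74.8 to 118 CPM (edgeR adjusted p = 0.00521) and Tmprss4, a channel-activating protease, from 18.4 ± 1.33 to 7.33 ± 0.671 CPM (edgeR adjusted p = 0.000961). The Furin call was lost without 4OHT and MRTX1133 replicate 2, the Ctss call without 4OHT and vehicle replicate 1. Under MRTX1133 the Tmprss11e call, from 0.120 to 0.716 CPM, was lost without replicate 1 of either group.

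Of 10 tested corticosteroid genes 4 fell and 2 rose with 4OHT in vehicle, where 15.7% of all genes were called lower, and 4 fell and 1 rose under MRTX1133, where 14.5% were. Tsc22d3, the glucocorticoid-induced leucine zipper GILZ, fell from 116 ± 48.8 to 14.2 ± 1.18 CPM in vehicle (log2 -3.03 ± 0.34, edgeR adjusted p = 0.000905) and from 105 ± 36.9 to 26.9 ± 3.501 CPM under MRTX1133 (log2 -1.97, edgeR adjusted p = 0.00418). Per1 fell from 90.1 ± 51.5 to 22.4 ± 1.27 CPM in vehicle, a call lost when either 4OHT library was left out. Hsd11b2, the enzyme that inactivates cortisol in aldosterone target cells, rose from 1.06 ± 0.0743 to 5.24 ± 1.23 CPM under MRTX1133 (log2 2.30, edgeR adjusted p = 0.00132). Sgk1, which glucocorticoids also induce, was higher with 4OHT while Tsc22d3 was lower, and any part of glucocorticoids in these values was not tested. Among transport partners 5 of 14 rose in vehicle and 4 under MRTX1133, where 15.3% and 13.2% of all genes were called higher, and none fell. Fxyd5, a regulator of the sodium pump, rose from 1.22 to 8.72 CPM and from 0.368 to 4.38 CPM, and Kcnn4 from 0.630 to 2.37 CPM and from 0.317 to 2.07 CPM. The Kcnn4 call in vehicle was lost without either 4OHT library. The 3 genes that fell with MRTX1133 after 4OHT were Stk39 (368 to 205 CPM), the proprotein convertase Pcsk6 (293 to 125 CPM) and Slc26a9 (142 to 72.0 CPM), and each call was lost when any of the 4 libraries was left out.

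Summed alveolar type 1 markers (5 of 6 listed) in these organoids ran from 1311 to 1345 CPM with ethanol and vehicle, 1857 to 2041 with ethanol and MRTX1133, 2014 to 2112 with 4OHT and vehicle, and 3300 to 3638 CPM with both. Club cell markers (3 of 4) ran from 35.3 to 70.1, 145 to 196, 427 to 637 and 950 to 965 CPM in the same order, which is also the order of Scnn1b and Scnn1g. Alveolar type 2 markers (7 of 7) ran from 6686 to 9045, 11118 to 13977, 8279 to 9501 and 12847 to 17148 CPM, so with MRTX1133 they were higher here and lower in 1027B. Ciliated (3 of 4), endothelial (2 of 5) and leukocyte (4 of 7) markers ran from 0.379 to 0.713, 1.01 to 2.15 and 0.631 to 1.01 CPM with ethanol and vehicle. With both agents they ran from 3.62 to 4.18, 4.49 to 4.51 and 1.77 to 3.23 CPM. Epithelial markers overlapped between these groups, and the fibroblast list (1 of 7) did not exceed 0.493 CPM. None of the listed markers was at 0 in a whole group, and the part of these lists in the subunit levels was not tested.

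At 2 weeks after 4OHT the difference between ethanol and 4OHT organoids of 3154 was small for all 3 subunits. Scnn1b stood at 15.9 and 14.6 CPM with ethanol and 19.4 and 18.3 CPM with 4OHT (log2 0.30 ± 0.17). Scnn1a stood at 21.9 and 13.03 CPM with ethanol and 23.3 and 21.9 CPM with 4OHT (log2 0.37 ± 0.27), ethanol replicate 2 being the low one. Scnn1g overlapped, at 15.9 and 13.8 CPM with ethanol and 16.3 and 12.1 CPM with 4OHT (log2 -0.06 ± 0.22). None of the 3 was called (9.81% of all genes were, 4.03% higher and 5.78% lower) and 2 did not overlap, as for 61.8% of genes. Without ethanol replicate 1 Scnn1a was called, at a log2 change of 0.78. Ethanol organoids thus held 15.2 ± 0.859 CPM of Scnn1b at 2 weeks and 1.01 ± 0.2395 CPM with vehicle at 48 hours. The tables come from separate experiments and were scaled separately, so no test was made. Club cell markers (4 of 4) at 2 weeks ran from 35.4 to 46.8 CPM with ethanol and from 141 to 165 CPM with 4OHT, with no overlap between the groups, while no subunit was called, and alveolar type 1 markers (6 of 6) ran from 1511 to 1648 and from 1791 to 1991 CPM. Leukocyte markers (4 of 7) ran from 13.6 to 38.7 CPM with ethanol and from 4.00 to 5.85 CPM with 4OHT. Ciliated (3 of 4) and fibroblast (2 of 7) markers were at most 1.17 and 0.404 CPM with ethanol and at least 2.59 and 0.525 CPM with 4OHT. The type 2, epithelial and endothelial lists overlapped. The part of these lists in the subunit levels was not tested. Shares per kilobase at 2 weeks were 27.8%, 39.0% and 33.3% for alpha, beta and gamma with ethanol and 31.6%, 41.3% and 27.2% with 4OHT.

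Other genes of the channel's pathway did change at 2 weeks, 9 of 56 tested (6 higher, 3 lower, or 16.1% against 9.81% of all genes, with a median log2 of 0.03 beside 0.02). With the replicate number as a block 30 passed, beside 4563 of all genes, though the numbers were not taken to pair these libraries. DESeq2 called 20, and edgeR called 14 without ethanol replicate 1, 6 without 4OHT replicate 1 and 5 without 4OHT replicate 2. Bpifa1, the secreted airway protein SPLUNC1 that inhibits ENaC, rose from 1 count in each ethanol library to 77 and 132 counts with 4OHT (edgeR adjusted p = 0.0102). The ratio of CPM means was 95.99, with a 95% counting interval from 26.3 to 799.5. Tsc22d3 fell from 22.9 ± 2.30 to 7.13 ± 0.173 CPM (log2 -1.68, edgeR adjusted p = 0.0112), Fxyd5 rose from 0.389 to 13.3 CPM, and Kcnn4 rose from 1.32 to 25.2 CPM. Of the proteases Tmprss11e rose from 1.76 to 17.4 CPM and Tmprss4 fell from 37.5 ± 0.740 to 17.6 ± 1.54 CPM. The Tmprss11e call was lost without 4OHT replicate 2 and the Tmprss4 call without either 4OHT library. Sgk1 stood at 15.0 ± 3.15 and 25.8 ± 1.17 CPM, Nedd4l at 183 ± 15.6 and 134 ± 8.33, Furin at 62.3 and 89.1 and Prss8 at 149.7 and 115 CPM with ethanol and 4OHT, and none of the 4 passed (edgeR adjusted p from 0.0691 to 0.129).

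H358 cells, in which no HNF4A count was found, had abundant SCNN1A and hardly any of the other subunits. SCNN1A stood at 244 and 254 CPM in vehicle and 451 and 399 CPM with trametinib (log2 0.77 ± 0.11, a 1.71-fold ratio), and the groups did not overlap. SCNN1G had 0 and 6 counts in vehicle and 25 and 32 counts with trametinib, or at most 0.179 CPM and 0.537 and 1.26 CPM. The fitted log2 change was 3.28 ± 0.86 and the ratio of means 10.01, with a 95% counting interval from 4.11 to 26.999, and the fit ran from 2.19 to 7.97 when a library was left out. SCNN1B had 0 counts in both vehicle libraries and 1 and 2 counts with trametinib, at or under the floor of 3 counts, so no fold is given and it was left out by the count filter. SCNN1A and SCNN1G were called higher, as were 23.5% of genes, and their groups did not overlap, as for 75.9% of tested genes. SCNN1G had passed the count filter only through its trametinib libraries and was not tested when 10 counts were required in every library, so nothing is read from its call.

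On the pathway lists 34 of 56 tested genes passed in H358 (14 higher, 20 lower; 60.7% against 46.8% of all genes; median log2 -0.01 beside 0.02). NEDD4L rose from 57.2 ± 3.14 to 84.9 ± 4.78 CPM (log2 0.57 ± 0.11, edgeR adjusted p = 0.00337) and STK39 fell from 126 ± 17.9 to 51.8 ± 0.268 CPM (log2 -1.28, edgeR adjusted p = 0.000140), so Nedd4l rose and Stk39 fell with trametinib in 1027B, 3311 and H358. SGK1 did not pass, at 6.12 and 8.90 CPM, and SGK2 rose from 0.793 to 1.93 CPM, a call lost without vehicle replicate 2 or trametinib replicate 1. Of the proteases TMPRSS2, a transmembrane serine protease of airway cells, rose from 1.78 ± 0.179 to 239 ± 23.4 CPM (log2 7.06 ± 0.16, edgeR adjusted p = 9.31e-07), and the cathepsin CTSS from 15.5 to 84.8 CPM. PRSS8 rose from 54.6 ± 10.2 to 99.8 ± 4.21 CPM (edgeR adjusted p = 0.00148) and FURIN fell from 213 ± 2.30 to 159 ± 2.09 CPM (edgeR adjusted p = 0.00787). NR3C2, the mineralocorticoid receptor, rose from 4.41 ± 0.459 to 22.6 ± 2.27 CPM (log2 2.35, edgeR adjusted p = 3.34e-05) and FKBP5 fell from 34.9 to 11.1 CPM. The water channel AQP4 rose from 0.597 to 6.80 CPM and SLC26A9 fell from 0.943 to 0.136 CPM. Summed alveolar type 1 markers were at 427 to 435 CPM in vehicle and 769 to 811 CPM with trametinib, and fibroblast markers at 41.2 to 50.01 and 246 to 348 CPM. Alveolar type 2 markers (6 of 7 listed) went from 10.1 to 10.2 CPM in vehicle to 25.6 to 30.03 CPM with trametinib, ciliated cell markers from 21.3 to 22.9 to 46.2 to 55.6 CPM, and endothelial markers from 13.9 to 15.6 to 28.3 to 28.5 CPM. Epithelial markers went from 5801 to 6080 to 4177 to 4446 CPM. The part of these lists in the values above was not tested.

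H1651 cells expressed all 3 subunits, and their levels differed more between replicates than between treatments. SCNN1A stood at 27.8 and 6.16 CPM in vehicle and 23.6 and 5.33 CPM with trametinib, SCNN1B at 46.8 and 22.1 against 47.9 and 22.03 CPM, and SCNN1G at 25.9 and 10.2 against 24.5 and 9.18 CPM. For each gene the replicate 1 libraries of both groups were the high ones and the replicate 2 libraries the low ones, and the groups overlapped. Within both replicate numbers SCNN1A and SCNN1G were lower with trametinib. The log2 changes were -0.24 ± 0.91, 0.02 ± 0.49 and -0.11 ± 0.61. Without a replicate term no subunit and no gene was called in edgeR (0%, 597 with an unadjusted p under 0.05, while DESeq2 called 47). None of the 49 tested pathway genes passed there (7 at an unadjusted p under 0.05, 0 by DESeq2). With the replicate number as a block 19 of 49 passed, and 1881 of all genes, but no subunit. Same-numbered libraries deviated together here (r 0.623), but this single pair of groups was not taken to pair them. The standard errors above, from the fit without a replicate term, leave room for changes in either direction. The SCNN1A fit ran between -1.68 and 1.23 when a library was left out, which also leaves a replicate number without its match. No subunit change was resolved at this spread.

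Doxycycline in H1651, with HNF4A raised, left the subunits within the spread between replicates. SCNN1A stood at 32.1 and 18.1 CPM without and 29.4 and 14.7 CPM with doxycycline (log2 -0.18 ± 0.35), and SCNN1B at 26.2 and 16.5 against 27.4 and 17.2 CPM (log2 0.07 ± 0.27). SCNN1G stood at 13.2 and 8.28 CPM without and 15.8 and 11.8 CPM with doxycycline (log2 0.37 ± 0.24). Replicate 1 was again the higher for each subunit in both groups, and the groups overlapped. Within both replicate numbers SCNN1A was lower and SCNN1B and SCNN1G were higher with doxycycline. None was called in edgeR without a replicate term, against 1.42% of all genes (1.04% higher, 0.386% lower). With the replicate number as a block SCNN1G was called higher, beside 22 of 51 pathway genes and 3048 of all genes. Same-numbered libraries had an r of 0.318, but this single pair of groups was not taken to pair them. With all libraries in edgeR 1 of 51 tested pathway genes passed (1.96%; 2 in DESeq2 and 1 to 4 with a library left out), WNK4 rising from 0.719 ± 0.207 to 4.67 ± 0.706 CPM (log2 2.69 ± 0.30, edgeR adjusted p = 0.012). Nedd4l, Sgk1, Prss8 and Furin in their human form did not pass (edgeR adjusted p from 0.192 to 0.969). SCNN1D, the delta subunit found in human but not in mouse, stood at 0.817 and 1.52 CPM in H358, 1.96 and 2.23 CPM with trametinib in H1651 and 2.66 and 2.77 CPM with doxycycline (control first), and passed in none.

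Genes within 500 kb of Scnn1g and Scnn1b had smaller or opposite changes than the pair with trametinib in 1027B and 3311 and with 4OHT in 3154 vehicle. At 2 weeks, where the pair itself stood at -0.06 and 0.30 on the log2 scale, none of 11 neighbours passed in edgeR and their changes ran from -1.45 for Gm44985 to 0.19 for Usp31. Of 30 genes annotated around the pair, 9 were tested in 1027B, where the highest log2 change with trametinib was 0.98 ± 0.18 for Gga2, a trafficking adaptor that was the only one called (edgeR adjusted p = 0.00991; 13.5% of all genes were called higher). In 3311 13 were tested; Usp31 rose by 0.54 (edgeR adjusted p = 0.0422) and Plk1, Ern2 and Prkcb fell. With 4OHT in vehicle in 3154 none of 11 rose and Plk1, Ern2 and the non-coding Gm44985 fell (15.3% of all genes were called higher, 15.7% lower). Around Scnn1a, Ltbr, a receptor of the TNF receptor family, rose with trametinib by 0.57 ± 0.12 in 1027B (edgeR adjusted p = 0.0170) and by 1.77 ± 0.18 in 3311 (edgeR adjusted p = 0.000893). Of 24 genes tested there in 1027B 3 rose and 2 fell, and of 26 in 3311 6 rose and 4 fell (19.4% and 19.6% of all genes). With 4OHT in 3154 vehicle 2 of 24 rose, Gm28809 by 1.65 ± 0.46 and Vamp1 by 0.93 ± 0.21, beside 0.91 ± 0.27 for Scnn1a, and Gapdh and Plekhg6 fell. The log2 change of Gpr162 in 3311, 3.496 ± 0.90, was above that of Scnn1a.

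**Figure D4:**
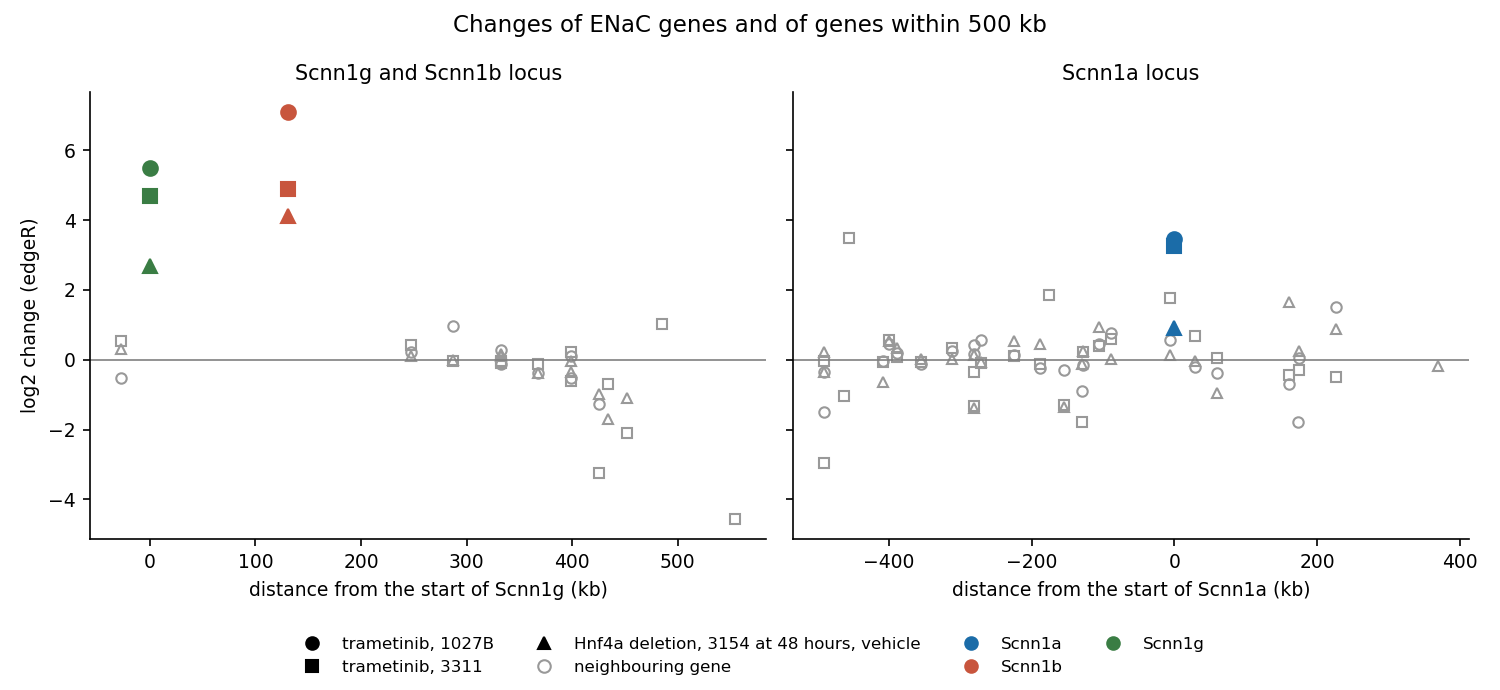
Log2 change from edgeR of the ENaC genes (filled) and of tested genes within 500 kb (open) against the distance of their start from the start of Scnn1g or Scnn1a in kb, for 3 comparisons marked by shape. Scnn1b and Scnn1g lie between 2.68 and 7.09, and the highest neighbour of the pair is at 1.02.

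Across the 22 mouse libraries, with each gene's log2 CPM centred on its table mean, the genes most like Scnn1a among 12598 were Lrpap1 (Pearson r 0.979), Scnn1g (0.974) and Ifit2 (0.970). Those most like Scnn1b were Trpm6 (0.971), Lurap1l (0.969) and Mmp11 (0.964), and those most like Scnn1g were Ifit2 (0.981), Nceh1 (0.981) and Gm38655 (0.975). Among the subunits themselves r was 0.974 for Scnn1a and Scnn1g, 0.934 for Scnn1b and Scnn1g and 0.894 for Scnn1a and Scnn1b. Scnn1b had 8 and 4 counts in 1027B vehicle and 1 and 0 in 3311 vehicle. At such counts the prior count of 2 narrows its log2 range, so these r values are not ranked. Trpm6, a magnesium channel, went from 4.12 ± 0.614 CPM in 1027B vehicle to 45.1 ± 6.57 CPM with trametinib, and from 2.88 ± 0.807 to 18.4 ± 0.704 CPM with 4OHT in 3154 vehicle. Ifit2, an interferon-induced gene, went from 4.19 ± 1.34 to 44.6 ± 12.03 CPM in 1027B with trametinib. Across the 12 human libraries CP (0.991), AHCYL2 (0.979) and ARHGEF38 (0.965) were most like SCNN1A, and DDX42 (0.976), DOCK8 (0.972) and FBXL18 (0.965) most like SCNN1G, among 15002 genes, while SCNN1B did not pass the filter in every table. These are descriptions over libraries that share treatments, replicate numbers and depth, and r was not split between them.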

How the data were processed

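Raw counts of reads for each gene were deposited in 7 tables, made from directional poly(A) libraries per the labels' protocols. The submitters' processing notes name cutadapt 3.5, STAR 2.7.6a and featureCounts 1.6.3, and the builds mm10, mm39 and hg38 without saying which table used which. The columns of the 3311 table name no line and were assigned by the table's name. Each table was fitted alone in R 4.3.3 with edgeR 4.0.16 (TMM, filterByExpr, quasi-likelihood F-test, all groups of the table, adjustment over all its genes by Benjamini-Hochberg, threshold 0.05), tested on simulated data. DESeq2 1.42.0, other size factors and filters, a replicate block and each library left out were alternatives. Replicates differed by 5.90 to 87.9 times the counting variance (chi-square per degree of freedom). In 1027B same-numbered libraries deviated together (r 0.372, 0.243 and 0.414), so the numbers were taken to pair them. Elsewhere r ran from -0.251 to 0.549 among the 48-hour 3154 groups, and was 0.427 in 3154 at 2 weeks, 0.126 in 3311, 0.318 in H358 and 0.623 and 0.318 in H1651 with trametinib and doxycycline. Those tables hold a single pair of groups or pairs under 0.1, and their numbers were not taken to pair libraries. Exon lengths are from GENCODE M21. The members and the pathway and marker lists were chosen with earlier results of these data known. Named were the 3 subunits, the 3 genes most like each, per list the 2 called genes with the largest change in each comparison, and Nedd4l, Sgk1, Prss8 and Furin throughout. Counting intervals cover counting error only, and the floor is 3 counts. One further allele of the mouse cultures is not reported here.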

Additional observations from a re-analysis of the deposited data

How the results depend on the processing

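The subunit changes were refitted under other size factors, count filters, the replicate block, DESeq2 and fits of only the groups compared. All 205 values of the 32 changes moved by less than the standard error of the main fit, at most 0.297 on the log2 scale. Some calls changed, as given above. Of 128 values with a library left out, where the lone sample is assumed to vary like the others, 83 moved by less than this error and 45 further. These ran, with 4OHT at 2 weeks, from 0.049 to 0.78 for Scnn1a and -0.30 to 0.13 for Scnn1g; at 48 hours in vehicle from 0.57 to 1.35 for Scnn1a and under MRTX1133 from 0.86 to 1.37 for Scnn1a, 3.19 to 3.76 for Scnn1b and 1.597 to 2.34 for Scnn1g. With MRTX1133 in ethanol they ran from 0.49 to 1.27 for Scnn1a, 2.43 to 3.02 for Scnn1b and 1.63 to 2.39 for Scnn1g, in 1027B from 4.93 to 5.73 for Scnn1b and 3.58 to 4.40 for Scnn1g, and with trametinib there from 6.79 to 7.58 for Scnn1b and 5.14 to 5.97 for Scnn1g. With trametinib they ran in 3311 from 2.84 to 3.59 for Scnn1a, 4.07 to 7.22 for Scnn1b and 4.03 to 5.88 for Scnn1g, in H358 from 2.19 to 7.97 for SCNN1G and in H1651 from -1.68 to 1.23 for SCNN1A, -0.65 to 0.66 for SCNN1B and -0.98 to 0.72 for SCNN1G, and with doxycycline from -0.77 to 0.29 for SCNN1A, -0.31 to 0.43 for SCNN1B and 0.077 to 0.74 for SCNN1G. The interaction of Scnn1a ran from -0.26 to 0.52. The differences between MRTX1133 and trametinib passed with the replicate block (-1.09, -1.85 and -1.56 for alpha, beta and gamma) and in DESeq2 (-1.10, -1.86 and -1.57). Counts of pathway genes called with a library left out ran from 5 to 14 with 4OHT at 2 weeks, 11 to 29 and 11 to 15 at 48 hours in vehicle and MRTX1133, 0 to 1 and 0 to 0 with MRTX1133 in ethanol and after 4OHT, 10 to 14 and 0 to 4 with trametinib and MRTX1133 in 1027B, and 0 to 4 and 1 to 4 with trametinib and doxycycline in H1651. With the block they were 30 at 2 weeks, 31, 27 and 13 in 1027B with trametinib, with MRTX1133 and between them, and 19 and 22 in H1651 with trametinib and doxycycline. DESeq2 gave 20 at 2 weeks, 4 and 6 with MRTX1133 in ethanol and after 4OHT, 13 and 7 in 1027B with MRTX1133 and against trametinib, and 2 with doxycycline. Only the compared groups gave 16 with MRTX1133 after 4OHT and 5 in 1027B. Over all genes the counts were 1421 at 2 weeks (block 4563, DESeq2 2311), 4795 with 4OHT in vehicle (3154 with only those groups), 54 with MRTX1133 in ethanol (DESeq2 330; 0 with only those groups, 743 unadjusted), 717 after 4OHT (DESeq2 1342, only those groups 3932), 3880 with trametinib in 1027B (block 6540), 913 with MRTX1133 there (block 3515, DESeq2 1636), 0 with trametinib in H1651 (block 1881, DESeq2 47) and 247 with doxycycline (block 3048, DESeq2 451). With a library left out they ran from 395 (without 4OHT replicate 1) and 437 (without 4OHT replicate 2) to 2790 (without ethanol replicate 1) at 2 weeks; 1668 to 5964 with 4OHT in vehicle, at most 1965 without a 4OHT library; 1745 to 2805 under MRTX1133 (4279 with all libraries); 0 to 309 and 0 to 23 with MRTX1133 in ethanol and after 4OHT; 1336 to 2754 and 138 to 349 with trametinib and MRTX1133 in 1027B; 3772 (without trametinib replicate 1) to 6298 in 3311 (5938 with all); 6682 to 9265 in H358 (8871 with all); and 0 to 193 and 232 to 412 with trametinib and doxycycline in H1651. In tables other than 1027B the same replicate number is not known to pair libraries, and there the block called 1 further subunit, SCNN1G with doxycycline. The pathway genes that the naming rule takes were put through the same alternatives after seeing the data: 40 of 66 calls held in every one and none of the 66 reversed, while 17 uncalled changes passed in some, among them Sgk1 at 2 weeks (4 of 10) and, in 1027B, Sgk1 with trametinib and Nedd4l with MRTX1133 (3 of 11 each). Uncalled changes crossed 0 when a library was left out, from -0.63 to 0.19 for Nedd4l with 4OHT in vehicle, -0.52 to 0.10 for Nedd4l under MRTX1133, -0.28 to 0.55 for Nedd4l, -0.10 to 0.46 for Sgk1 and -0.032 to 0.047 for Furin with MRTX1133 in ethanol, -0.039 to 0.25 for Nedd4l after 4OHT, -0.44 to 0.38 for Nedd4l and -0.20 to 0.36 for Sgk1 in the interaction, -0.29 to 0.45 for NEDD4L and -0.69 to 0.82 for PRSS8 with trametinib in H1651 and -0.22 to 0.29 for NEDD4L with doxycycline. Furin with MRTX1133 in ethanol was -0.0142 with RLE factors, -0.0142 in DESeq2 and -0.00639 with only those groups. The cause of these shifts was not tested. A filter of 10 counts in every library left no value for Scnn1b in 1027B, Scnn1b and Scnn1g in 3311 or SCNN1G in H358.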
